A study of Mus musculus with 24 samples.

Results

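Drd1, Drd2, Drd3, Ppp1r1b, Pde10a, Rgs9, Penk, Pde1b, Meis2 and Rarb are 10 genes of dopamine reception and of striatal neuron signalling, described here across 24 arrays of mouse mediobasal hypothalamus. The list was chosen by pathway and by differences between conditions already measured on these arrays. Each gene was read from its probe set annotated to exactly 1 gene symbol, the one with the highest mean where a gene had several. All 10 had 1 such probe set and all 10 passed the filter on low values, among 19938 genes with such a probe set and 11871 genes tested. The values known to have chosen members are the average difference of Drd3 and the ZT7 difference of Meis2, so the differences of both genes between the conditions are descriptions, for which no p-value is printed. Where a count of genes that passed a test includes them, the count among the other 8 genes stands beside it.

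TSR mice, C57BL76J by the labels' spelling, were held awake by gentle handling between ZT0 and ZT6 on 5 days in a row, then slept freely for 2 days, then had another 5 days of the same handling. CON mice of the same strain were not disturbed and were run alongside. Tissue was taken at ZT1, ZT7, ZT13 and ZT19 (hours of zeitgeber time, counted from lights on), with 3 arrays per condition and time, and the series' design text gives 3 mice for each of these 8 groups. The labels give neither sex nor age, and all values are log2 signals of whole dissected tissue, in which fewer cells of a type and less RNA per cell cannot be told apart.

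Dopamine acts through D1-class receptors, which raise cAMP, and D2-class receptors, which lower it. In medium spiny neurons of the striatum the signal passes through protein kinase A to the phosphatase inhibitor DARPP-32 (Ppp1r1b), and is shaped by phosphodiesterases that break cyclic nucleotides down (Pde10a, Pde1b) and by the RGS protein Rgs9, which speeds the shut-off of G proteins. Penk encodes the opioid peptide precursor proenkephalin, and Meis2 and Rarb encode a homeodomain factor and a retinoic acid receptor of the developing and adult striatum. Several of these genes are also expressed in hypothalamic neurons, and the hypothalamus has dopamine neurons of its own in the arcuate nucleus.

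On 4 arrays the interquartile range of the log2 values was 2.12 to 2.25, against 2.96 to 3.29 on the other 20, with the limit for a typical array set at 2.5. These narrow arrays were TSR ZT1 replicate 3, TSR ZT13 replicate 2, and CON ZT19 replicates 2 and 3, so that ZT7 was the only time with no narrow array in either condition and CON ZT19 kept 1 typical array. Each comparison is given over 24 arrays and again over the 20 typical arrays, where the median residual standard deviation over genes was 0.11 log2 units in place of 0.36. The spread of a gene was estimated over all 8 groups together, so the narrow arrays also enter the standard errors at ZT7 over 24 arrays. Of 11 genes read that mark arcuate and ventromedial neurons, which belong to the labelled tissue, 7 passed the filter and 4 did not, namely Pomc, Nr5a1, Rax and Nkx2-1.

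The difference between the conditions had the same sign in all 10 genes at ZT7, a time of day just past the daily handling window. Across the 10 genes the median difference, TSR minus CON, was 0.80 log2 units, against 0.00 over all genes tested. In the limma fit over 24 arrays 5 of the 10 passed an adjusted p of 0.05, all higher in TSR (Drd1, Drd2, Drd3, Ppp1r1b and Meis2), where 0.219% of all genes tested passed and were higher. With the 20 typical arrays 9 of the 10 passed, all higher in TSR and all but Rgs9, where 12.8% of all genes did. Among the 8 genes other than Drd3 and Meis2, 3 passed over 24 arrays and 7 over 20. Nothing is read from these shares, since the list was made with results of these arrays known. In 9 of the 10 genes, all but Rgs9, the lowest of the 3 TSR arrays at ZT7 lay above the highest of the 3 CON arrays, a pattern seen in 17.4% of all genes tested. The count of 5 was 0 or 1 when any one of the 6 ZT7 arrays was left out, and 4 to 6 when any other array was.

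**Figure D1:**
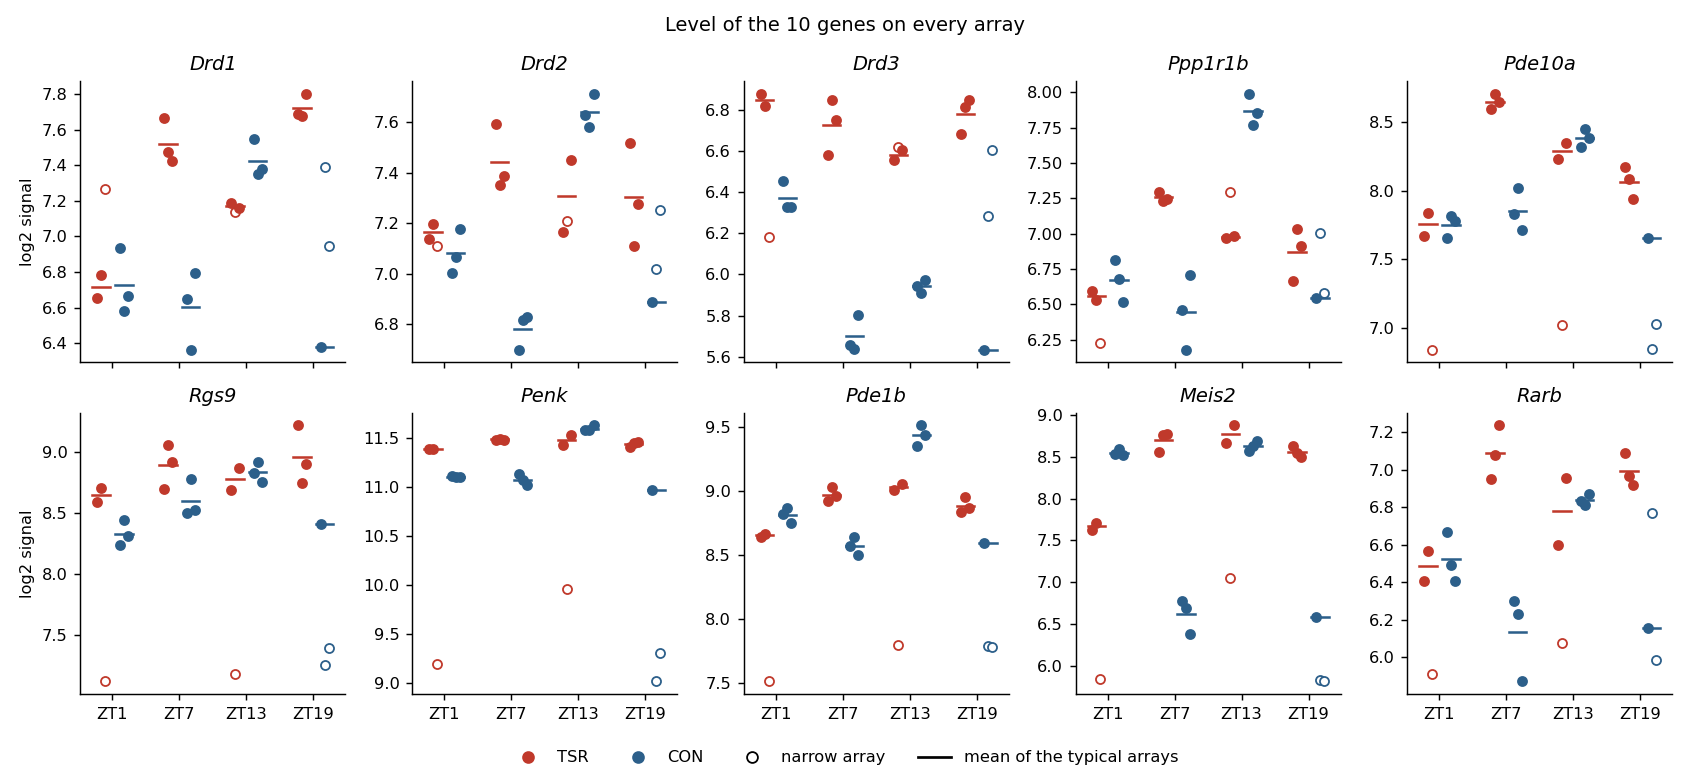
Log2 signal of each gene (y axis, 1 panel per gene with its own scale) on every array at ZT1, ZT7, ZT13 and ZT19 (x axis), with TSR arrays in red left of CON arrays in blue, narrow arrays as open circles and bars at the mean of the typical arrays. At ZT7 the TSR points lie above the CON points in every panel but that of Rgs9, where 1 CON point (8.78) lies above 1 TSR point (8.70).

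Drd1, the most abundant D1-class receptor gene of the striatum, had 7.67, 7.47 and 7.42 log2 units in the TSR arrays at ZT7, against 6.65, 6.36 and 6.79 in the CON arrays. At ZT13 the TSR arrays had 7.19, 7.13 and 7.16 and the CON arrays 7.54, 7.35 and 7.38. The order of the conditions was thus opposite at these times, without overlap at either, but the ZT13 difference of -0.26 ± 0.20 did not pass the test (adjusted p = 0.59 over 24 arrays, 0.0927 over 20). At ZT1 Drd1 had 6.65, 6.78 and, on the narrow array, 7.27 in TSR, against 6.93, 6.58 and 6.66 in CON. At ZT19 the TSR arrays had 7.68, 7.68 and 7.80 and the CON arrays 6.38 and, on the narrow pair, 7.39 and 6.94. The groups overlapped at ZT1 and not at ZT19. The Drd1 difference was 0.92 ± 0.20 (SE) at ZT7, with an adjusted p of 0.0463, and it averaged 0.41 ± 0.10 over the 4 times, with an adjusted p of 0.0321. Both calls were lost when single arrays were left out, in 19 of 24 cases at ZT7 and in 14 of 24 for the average. Over typical arrays the group means of Drd1 ran from 7.72 in TSR ZT19 to 6.38 on the CON ZT19 array, and 4 of the 7 pairs of neighbours in that order overlapped.

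Drd2, a D2-class receptor that also serves as an autoreceptor on dopamine neurons, had 7.59, 7.35 and 7.39 log2 units in TSR at ZT7, against 6.70, 6.82 and 6.83 in CON. At ZT13 it had 7.17, 7.21 and 7.45 in TSR and 7.63, 7.58 and 7.71 in CON. Every TSR array lay above every CON array at ZT7 and below every CON array at ZT13. The difference was 0.66 ± 0.13 at ZT7 (adjusted p = 0.0274) and -0.37 ± 0.13 at ZT13 (adjusted p = 0.232 over 24 arrays, 0.0198 over 20). At ZT1 Drd2 had 7.14, 7.20 and, on the narrow array, 7.11 in TSR, against 7.005, 7.07 and 7.18 in CON. The difference there was 0.06 ± 0.13 and the groups overlapped. At ZT19 Drd2 had 7.52, 7.11 and 7.28 in TSR and 6.89, 7.02 and 7.25 in CON, a difference of 0.25 ± 0.13 with an adjusted p of 0.107. CON ZT13 had the highest Drd2 group mean, 7.64, and CON ZT7 the lowest, 6.78.

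Drd3, a D2-class receptor best known from the ventral striatum, differed from the other receptors in its time course. It had 6.58, 6.85 and 6.75 log2 units in TSR at ZT7, against 5.65, 5.64 and 5.80 in CON. At ZT13, where the TSR arrays lay below the CON arrays for Drd1 and Drd2, Drd3 had 6.56, 6.62 and 6.61 in TSR against 5.94, 5.91 and 5.97 in CON. At ZT1 the typical TSR arrays had 6.88 and 6.82 and the narrow one 6.18, against 6.45, 6.33 and 6.33 in CON. The typical TSR arrays lay above all CON arrays at ZT1 and the narrow one lay below them. At ZT19 the TSR arrays had 6.68, 6.82 and 6.85 and the CON arrays 5.63 and, on the narrow pair, 6.28 and 6.60. The CON arrays of ZT7 and the typical CON array of ZT19 lay below the filter on low values, 5.86 log2 units. Drd3 passed that filter by its mean over the 24 arrays, 6.36. Its low CON levels, and the differences that rest on them, are therefore read close to that limit. Over typical arrays the 4 TSR group means, 6.58 to 6.85, all stood above the 4 CON group means, 5.63 to 6.37, and the lowest TSR mean did not overlap the highest CON mean. The difference averaged 0.64 ± 0.10 over the 4 times in 24 arrays and 0.82 ± 0.05 in 20. Within CON, Drd3 was highest at ZT1, where Drd1, Drd2 and Ppp1r1b were not at their highest.

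Ppp1r1b, which encodes DARPP-32, had the largest fall in TSR at ZT13 among the 10 genes over the 20 typical arrays. It had 6.97, 7.29 and 6.99 log2 units in TSR at ZT13, the 7.29 on the narrow array, against 7.99, 7.77 and 7.85 in CON. At ZT7 it had 7.30, 7.23 and 7.25 in TSR against 6.46, 6.18 and 6.71 in CON. The groups were apart at both times and in opposite order. The difference was 0.81 ± 0.16 at ZT7 (adjusted p = 0.0256) and -0.79 ± 0.16 at ZT13 (adjusted p = 0.0383), and averaged -0.01 ± 0.08 over the 4 times. The ZT13 call was lost in 14 of the 24 fits that left out 1 array, with adjusted p-values between 0.056 and 0.197. At ZT1 the TSR arrays had 6.59, 6.53 and 6.23 and the CON arrays 6.82, 6.68 and 6.52, and at ZT19 the TSR arrays had 6.67, 7.04 and 6.91 and the CON arrays 6.54, 7.003 and 6.58. The groups overlapped at both of these times. A test of whether the difference itself varied among the 4 times gave an adjusted p of 0.0109 for Ppp1r1b, and that call remained in each of the 24 fits that left out 1 array. It was lost when the arrays were quantile normalized again (adjusted p = 0.112).

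Both phosphodiesterase genes were higher in TSR at ZT7 without overlap. Pde10a, whose product breaks down cAMP and cGMP in medium spiny neurons, had 8.59, 8.71 and 8.65 log2 units in TSR at ZT7, against 7.83, 8.02 and 7.71 in CON. Pde1b, a calcium and calmodulin dependent phosphodiesterase, had 8.92, 9.03 and 8.96 in TSR at ZT7, against 8.57, 8.64 and 8.50 in CON. These differences, 0.80 ± 0.29 for Pde10a and 0.40 ± 0.32 for Pde1b over 24 arrays, had adjusted p-values of 0.501 and 1, and over 20 arrays, with standard errors of 0.08 and 0.06, adjusted p-values of 1.39e-06 and 8.45e-05. At ZT13 the typical TSR arrays had 9.01 and 9.06 for Pde1b and the narrow one 7.79, against 9.35, 9.51 and 9.44 in CON. Pde1b was thus lower in TSR at ZT13 over typical arrays (-0.40 ± 0.07, adjusted p = 0.000125). Pde10a at ZT13 had 8.23 and 8.34 on the typical TSR arrays and 7.02 on the narrow one, against 8.31, 8.45 and 8.38 in CON, and its groups overlapped. At ZT1 Pde10a had 7.67, 7.84 and, on the narrow array, 6.84 in TSR, against 7.65, 7.82 and 7.78 in CON. At ZT1 Pde1b had 8.64, 8.66 and 7.51 in TSR against 8.82, 8.87 and 8.75 in CON. All 3 TSR arrays lay below the CON arrays there, by a difference that did not pass the test over 24 or 20 arrays (adjusted p = 0.745 and 0.141). At ZT19 Pde10a had 8.17, 8.09 and 7.94 in TSR and 7.66, 6.85 and 7.03 in CON, and Pde1b had 8.84, 8.95 and 8.87 in TSR and 8.59, 7.79 and 7.78 in CON, in each case with the narrow CON arrays last.

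Rgs9 was the one gene of the 10 whose groups overlapped at ZT7. It had 8.70, 9.06 and 8.91 log2 units in TSR and 8.49, 8.78 and 8.52 in CON, a difference of 0.29 ± 0.40 over 24 arrays and of 0.29 ± 0.11 over 20, with adjusted p-values of 1 and 0.0601. At ZT13 the groups overlapped as well, with 8.69, 7.18 and 8.86 in TSR, the middle value on the narrow array, and 8.82, 8.91 and 8.75 in CON. Among the 10 genes Rgs9 also had the smallest range of group means over typical arrays, 0.62 log2 units between TSR ZT19 (8.95) and CON ZT1 (8.33). At ZT1 it had 8.59, 8.70 and, on the narrow array, 7.12 in TSR, against 8.23, 8.44 and 8.31 in CON. At ZT19 it had 9.22, 8.75 and 8.90 in TSR, against 8.41, 7.25 and 7.39 in CON. Only the first of these CON arrays was typical, and over typical arrays the ZT19 difference was 0.55 ± 0.16 (adjusted p = 0.0184), where the lone CON array was assumed to vary like the other groups, against 1.27 ± 0.40 over 24 arrays (adjusted p = 0.023).

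Penk had the smallest spread between typical replicates of the 10 genes, with a standard deviation within groups of 0.04 log2 units. It had 11.49, 11.50 and 11.49 log2 units in TSR at ZT7, against 11.13, 11.08 and 11.02 in CON. At ZT13 the typical TSR arrays had 11.43 and 11.53 and the narrow one 9.96, against 11.58, 11.58 and 11.63 in CON. Penk was thus higher in TSR at ZT7, by 0.41 ± 0.04 over 20 arrays (adjusted p = 7.33e-07), and lower in TSR at ZT13, by a smaller amount (-0.12 ± 0.05, adjusted p = 0.0423). The ZT13 difference turned to 0.148 when the typical arrays were quantile normalized again. Neither passed over 24 arrays, where the standard error was 0.51 and the adjusted p-values were 1 and 0.616. At ZT1 the typical TSR arrays had 11.39 and 11.39 and the narrow one 9.20, against 11.12, 11.10 and 11.10 in CON. The sign at ZT1 turned with that array, from -0.45 ± 0.51 with it to 0.28 ± 0.05 without it. At ZT19 Penk had 11.41, 11.45 and 11.46 in TSR, against 10.97 and, on the narrow pair, 9.02 and 9.31 in CON. On all 4 narrow arrays Penk lay between 9.02 and 9.96, against 10.97 to 11.63 on the typical arrays.

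Meis2 fell into separate levels rather than a continuous range on the typical arrays. It had 8.55, 8.76 and 8.78 log2 units in TSR at ZT7, against 6.77, 6.69 and 6.37 in CON, a difference of 2.09 ± 0.09 over 20 arrays and 2.09 ± 0.41 over 24. At ZT1 the order was the other way round, with 7.63 and 7.71 on the typical TSR arrays and 5.84 on the narrow one, against 8.53, 8.60 and 8.52 in CON. At ZT13 the conditions overlapped, with 8.66, 7.04 and 8.88 in TSR, the middle value on the narrow array, and 8.57, 8.62 and 8.69 in CON. At ZT19 the TSR arrays had 8.63, 8.54 and 8.49, against 6.58 on the typical CON array and 5.82 and 5.81 on the narrow pair. Of the 20 typical arrays, 4 lay between 6.37 and 6.77 (the typical CON arrays of ZT7 and ZT19), 2 at 7.63 and 7.71 (TSR ZT1) and 14 between 8.49 and 8.88. The low level was therefore seen at ZT7 and ZT19 in CON and at neither time in TSR. Its group means spanned 2.19 log2 units.

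Rarb, the retinoic acid receptor gene, was also higher in TSR at ZT7 and ZT19. It had 6.95, 7.08 and 7.24 log2 units in TSR at ZT7, against 6.30, 6.23 and 5.87 in CON, and 7.09, 6.97 and 6.92 in TSR at ZT19, against 6.15 on the typical CON array and 6.77 and 5.99 on the narrow pair. All TSR arrays lay above all CON arrays at both times. The ZT7 difference of 0.96 ± 0.22 had an adjusted p of 0.0544 over 24 arrays, and 0.96 ± 0.12 had one of 7.3e-06 over 20. At ZT13 Rarb had 6.60, 6.07 and 6.96 in TSR, the middle value on the narrow array, against 6.83, 6.81 and 6.87 in CON, and at ZT1 it had 6.41, 6.57 and 5.91 in TSR against 6.67, 6.49 and 6.41 in CON. The groups overlapped at ZT13 and at ZT1.

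Sequence directly upstream of the annotated start was taken from RefSeq (GRCm38.p6) for 8 of the 10 genes, in 12 windows of 250 bases, and Penk and Ppp1r1b were not analysed here. The windows below were chosen because they hold a searched motif (Rarb and the first window of Pde1b) or belong to the genes with the largest and the most persistent differences between the conditions (Meis2 and Drd3). Each is written 5′ to 3′ on the gene's strand in lower case and ends at the base before the start, with motif matches in capitals. The Rarb window is chr14:16575477-16575726 on the minus strand, the Pde1b window chr15:103502784-103503033 on the plus strand, the Meis2 window chr2:116064620-116064869 on the minus strand and the Drd3 window chr16:43761971-43762220 on the plus strand.
Rarb: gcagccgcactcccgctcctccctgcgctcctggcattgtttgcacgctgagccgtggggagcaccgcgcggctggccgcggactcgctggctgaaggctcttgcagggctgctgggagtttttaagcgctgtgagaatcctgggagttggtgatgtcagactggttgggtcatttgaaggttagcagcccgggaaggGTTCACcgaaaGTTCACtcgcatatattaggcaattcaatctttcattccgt
Pde1b: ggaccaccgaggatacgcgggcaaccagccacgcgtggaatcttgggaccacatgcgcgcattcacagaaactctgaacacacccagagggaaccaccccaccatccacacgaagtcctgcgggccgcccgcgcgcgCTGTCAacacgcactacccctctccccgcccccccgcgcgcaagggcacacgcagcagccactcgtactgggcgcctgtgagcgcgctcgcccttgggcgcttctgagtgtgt
Meis2: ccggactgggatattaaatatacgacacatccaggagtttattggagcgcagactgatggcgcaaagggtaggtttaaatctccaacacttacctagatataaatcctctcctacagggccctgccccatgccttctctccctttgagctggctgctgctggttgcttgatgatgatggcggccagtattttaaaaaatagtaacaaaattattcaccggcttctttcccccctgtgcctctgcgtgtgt
Drd3: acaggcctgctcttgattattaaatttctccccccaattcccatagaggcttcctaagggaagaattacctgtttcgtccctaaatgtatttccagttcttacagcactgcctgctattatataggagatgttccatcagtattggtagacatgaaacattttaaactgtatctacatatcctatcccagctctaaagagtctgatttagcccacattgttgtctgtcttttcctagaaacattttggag

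Each window was searched for 3 motifs on both strands, none overlapping another. The Rarb window held the direct repeat GTTCACNNNNNGTTCAC, a form of the element that retinoic acid receptors bind, at positions -52 to -36 from the start. Of 32851 windows of this length in the RefSeq table, 2 held that repeat (0.00609%). Only this exact spelling, which is that of the Rarb window, was searched. Other spellings of the element were not counted, so nothing is read from that share. The core TGACAG, which MEIS proteins bind, was found in 2 of the 12 windows, both among the 3 of Pde1b, and in 15.9% of all windows. In the Pde1b window printed it stands as its reverse complement in positions -113 to -108. The cAMP response element TGACGTCA was found in none of the 12 windows and in 1.55% of all windows. A match is a description of the letters and not a measured binding site.

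Set side by side over time, the 10 genes were highest in different conditions at different hours. At ZT1 the median difference was -0.22 log2 units, against -0.22 over all genes tested, and no gene of the 10 passed the test over 24 arrays (1 had an unadjusted p under 0.05), where 0.0505% of all genes passed in either direction. Over 20 arrays 3 passed at ZT1, Drd3 and Penk higher and Meis2 lower in TSR (1 of the other 8), where 9.86% of all genes passed. At ZT13 the median was -0.48 against -0.18 for all genes over 24 arrays, and -0.11 against 0.00 over 20. One gene of the 10 passed at ZT13 over 24 arrays, Ppp1r1b, lower in TSR, where 0.413% of all genes passed. Over 20 arrays 5 passed, Drd3 higher and Drd2, Ppp1r1b, Penk and Pde1b lower (4 of the other 8), where 46% of all genes passed. The direction of Penk turned under the added normalization given above. In 6 of the 10 the ZT13 groups did not overlap over 24 arrays, Drd3 higher and Drd1, Drd2, Ppp1r1b, Penk and Pde1b lower in TSR, against 27.4% of all genes in either direction.

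At ZT19 all 10 differences were positive, with a median of 0.83 log2 units against 0.60 over all genes tested. Of the 10 genes 8 passed over 24 arrays (6 of the other 8), all higher in TSR, where 44.1% of all genes did. At this time 2 of the 3 CON arrays were narrow. Drd2 and Ppp1r1b did not pass. Over typical arrays the median was 0.51 against 0.08 for all genes, and 9 passed, all but Ppp1r1b (7 of the other 8), where 17.5% of all genes passed and were higher. That comparison rests on 1 CON array, assumed to vary like the other groups, which supply the spread. The count of 8 was 0 without TSR ZT19 replicate 1 or 2 or without CON ZT19 replicate 2 or 3.

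**Figure D2:**
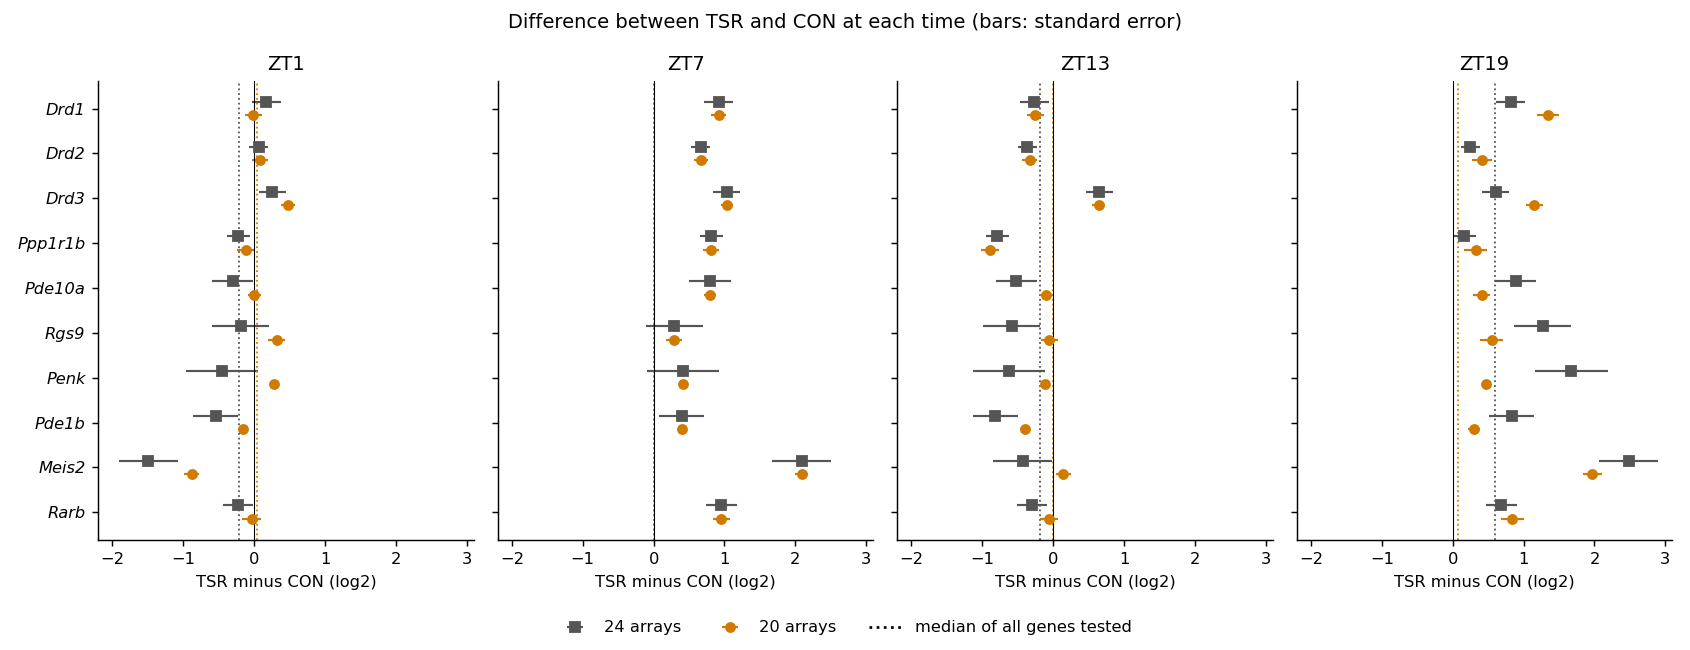
Difference TSR minus CON in log2 units (x axis) for each gene (y axis) at ZT1, ZT7, ZT13 and ZT19, with standard errors, over 24 arrays (grey squares) and over the 20 typical arrays (orange circles), and dotted lines at the median of all genes tested. All 10 genes lie right of 0 at ZT7 and at ZT19, while at ZT13 over 24 arrays Drd3 alone does.

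Averaged over the 4 times, Drd1 passed over 24 arrays, 1 of the 8 genes other than Drd3 and Meis2, and was higher in TSR, where 2.41% of all genes passed in either direction. Drd3 passed as well, by the value for which it was listed. Over 20 arrays 8 of the 10 passed, all higher and all but Ppp1r1b and Pde1b (6 of the other 8), where 56.2% of all genes passed. The 4 times differed within CON for 3 of the 10 over 24 arrays, Drd2 and Ppp1r1b (adjusted p = 0.017 and 0.000573) and Meis2, whose CON ZT7 arrays are part of the difference it was listed for, where 0.286% of all genes passed. Over 20 arrays the times within CON differed for 10 of 10 (8 of the other 8), where 29.5% of all genes passed. Within TSR the 4 times differed for 0 of 10 over 24 arrays in limma, with 5 at an unadjusted p under 0.05, where 0.118% of all genes passed, and for 6 over 20 arrays (Drd1, Ppp1r1b, Pde10a, Pde1b, Meis2 and Rarb, 5 of the other 8), where 23.6% did. The difference between the conditions itself varied among the times for Ppp1r1b over 24 arrays, 1 of the 8 genes other than Drd3 and Meis2, where 0.261% of all genes passed, and for 7 of these 8 over 20 arrays, all but Rgs9, where 29.2% did. The ZT7 difference of Meis2 is part of this test, so nothing is read from its result.

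Across the 20 typical arrays the genes varied together, as described by Pearson's r, given here without a test because replicates of a group and all arrays share their processing. Leaving out Meis2, whose separate levels allow no pooled value by pair, 36 pairs had a median r of 0.69, from 0.02 for Drd3 with Ppp1r1b to 0.91 for Ppp1r1b with Pde1b, and 27 of the 36 exceeded 0.5. The median over all gene pairs tested was 0.05. The list was chosen partly by differences between the conditions on these arrays, so nothing is read from the gap between these medians. Over all 24 arrays the medians were 0.51 for the 36 pairs and 0.53 for all gene pairs. Ppp1r1b with Pde1b had a Spearman rho of 0.86, and r was 0.87 over 18 arrays without the 2 farthest from the median of Ppp1r1b. Drd3 was the least like the others, with a median r of 0.34 over its 8 pairs, of which 1 exceeded 0.5, with Rarb (0.62). Deviations from the group means gave a median of 0.02 over the same 36 pairs, against 0.11 over all gene pairs. Within groups, Pde10a and Rgs9 had an r of 0.71 and Drd1 and Pde10a one of -0.74. Within the 14 arrays of the upper Meis2 level, r with Meis2 was 0.62 for Pde10a, 0.46 for Rarb and -0.02 for Drd1.

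**Figure D3:**
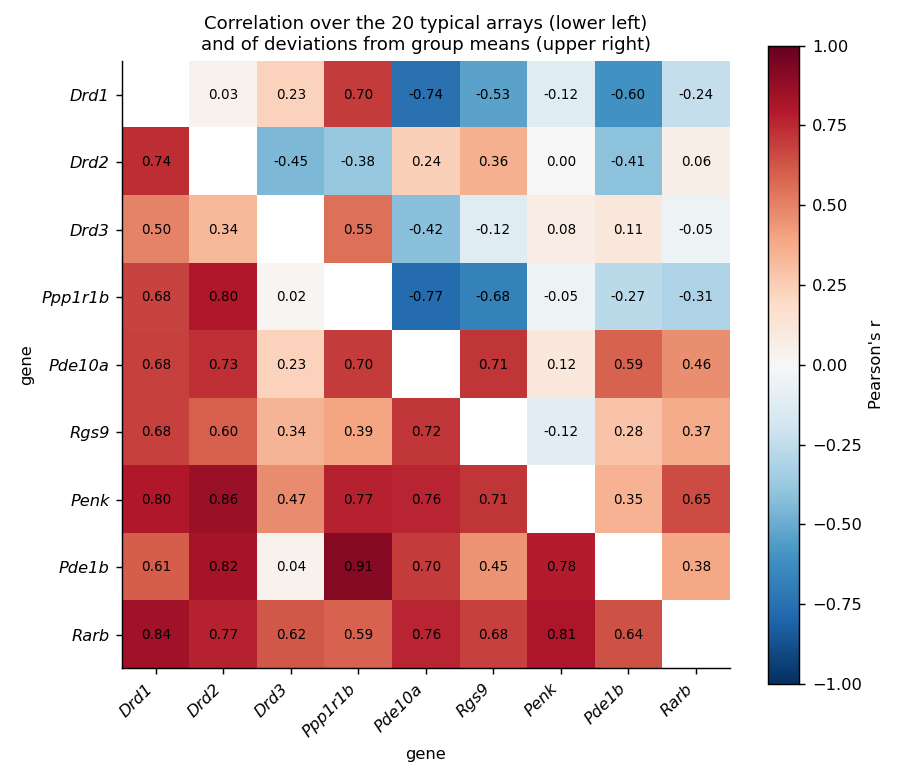
Pearson's r between pairs of 9 genes (both axes) over the 20 typical arrays (lower left) and of deviations from the group means (upper right), with Meis2 left out. The lower left runs from 0.02 to 0.91, and the upper right holds both signs.

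The 10 other genes most like the list were found by Pearson's r with the mean of the 10 standardized levels over the 20 typical arrays. They were Strip2 (0.95), Akap5 (0.94), Ptk2b (0.92), Mctp1 (0.91), Lmo7 (0.91), Arpp21 (0.90), St6galnac5 (0.89), Arel1 (0.89), Foxp1 (0.88) and Fras1 (0.87). The mean of the 10 includes Meis2. Without Meis2 the mean of 9 genes had an r of 0.997 with it, and 9 of its 10 most like genes were the same. Akap5 encodes an anchoring protein of protein kinase A, Ptk2b a calcium-responsive tyrosine kinase, Foxp1 a forkhead factor of striatal neurons and Arpp21 a cAMP-regulated phosphoprotein. At ZT7 the mean of Strip2 was 7.34 in TSR and 6.40 in CON, that of Akap5 8.55 in TSR and 7.47 in CON, and that of Arpp21 7.98 in TSR and 7.11 in CON. Genes picked by this r share the order of the conditions at ZT7 by the way they were picked, so nothing is read from it. Of these 10 genes 3, Strip2, Arpp21 and Foxp1, were on a list of striatal projection neuron genes. Of the 11871 genes tested, 27 were on it. Nothing is read from that count, since this list was chosen with earlier results of these data known.

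That list held 32 genes, of which 30 were read and 27 passed the filter. At ZT7 none of the 27 passed in limma over 24 arrays (8 had an unadjusted p under 0.05), and 15 were higher and 2 lower in TSR over 20 arrays, where 12.8% of all genes passed and were higher and 13.8% passed and were lower. At ZT13 none passed over 24 arrays (10 had an unadjusted p under 0.05), and 3 were higher and 13 lower over 20, 16 of 27 in either direction where 46% of all genes passed. Its mean on typical arrays was 7.36 to 7.41 log2 units in TSR at ZT7 against 6.999 to 7.07 in CON, and 7.29 to 7.36 in TSR at ZT13 against 7.46 to 7.55 in CON. Its mean thus lay higher in TSR at ZT7 and lower at ZT13, and its mean standardized level had an r of 0.85 with that of the 10 genes. Averaged over the 4 times the smallest p-values of the list belonged to Zfp503 and Six3, both lower in TSR, with differences of -0.33 ± 0.08 and -0.35 ± 0.09 log2 units (adjusted p = 0.0239 and 0.0362), and to Arpp21 and Hpca, which did not pass (0.44 ± 0.15 and -0.49 ± 0.16).

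The mean of 8 genes that make, carry and break down dopamine lay lower in TSR at ZT7 and higher at ZT13 on typical arrays. It was 6.89 to 6.99 log2 units in TSR at ZT7 against 7.03 to 7.08 in CON. At ZT13 it was 6.96 to 6.97 in TSR against 6.92 to 6.93 in CON. At ZT13 none of the 8 passed over 24 arrays, and over 20 arrays 2 were higher and 1 lower, where 46% of all genes passed. None of 8 passed at ZT7 over 24 arrays in limma (2 had an unadjusted p under 0.05), and over 20 arrays 1 was higher and 3 lower in TSR. Over 20 arrays 12.8% of all genes tested passed at ZT7 and were higher, and 13.8% passed and were lower. These shares also stand beside the ZT7 counts of the lists that follow. Th, the rate-limiting enzyme of dopamine synthesis, differed by -0.31 ± 0.26 log2 units at ZT7 over 24 arrays (adjusted p = 1) and by -0.31 ± 0.08 over 20 (adjusted p = 0.00639). Of the other dopamine and opioid receptors 5 were read and 4 tested (Drd5 was below the filter), with none passing at ZT7 over 24 arrays (0 at an unadjusted p under 0.05) and 1, higher, over 20. Averaged over the 4 times, Drd4 differed by -0.20 ± 0.14 and Oprm1, the mu opioid receptor gene, by 0.19 ± 0.09, and neither passed over 24 arrays. Of 15 genes of protein kinase A, calcium and phosphatase signalling none passed at ZT7 over 24 arrays (0 at an unadjusted p under 0.05), and 4 were higher and 1 lower over 20. Pde1a, a relative of Pde1b, had an average difference of 0.59 ± 0.22 over 24 arrays (adjusted p = 0.186). Of 10 MEIS, PBX and retinoid partners none passed at ZT7 over 24 arrays (1 had an unadjusted p under 0.05) and 3 were higher and 1 lower over 20, and Meis1 averaged 0.54 ± 0.15 (adjusted p = 0.0555).

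Markers of neighbouring forebrain regions and of other cell types were read at the same times. Their counts stand beside these shares of all genes tested. At ZT7 0.219% passed and were higher in TSR over 24 arrays, and 12.8% over 20. At ZT7 over 20 arrays 13.8% passed and were lower. At ZT13 0.413% passed in either direction over 24 arrays, and 46% over 20. Of 7 forebrain cholinergic neuron genes read 5 passed the filter (Chat and Gbx2 did not), and 4 of the 5 were higher in TSR at ZT7 over 24 arrays, with Ache, which encodes acetylcholinesterase and was chosen for mention after its values were seen, at -0.24 ± 0.37 (adjusted p = 1). At ZT13 none of the 5 passed over 24 arrays in limma (4 had an unadjusted p under 0.05), and at both times 4 were higher and Ache lower over 20 arrays, where Ache differed by -0.80 ± 0.09 at ZT13 (adjusted p = 2.01e-06). Their mean on typical arrays was 7.91 to 7.94 log2 units in TSR at ZT7 against 6.31 to 6.52 in CON, and 7.34 to 7.40 in TSR at ZT13 against 6.79 to 6.86 in CON. Lhx8, a homeodomain factor of these neurons, differed by 1.59 ± 0.20 at ZT7 (adjusted p = 0.00114) and by 0.52 ± 0.20 at ZT13 (adjusted p = 0.256). The cholinergic mean thus lay higher in TSR at both ZT7 and ZT13. Of 10 cortex and thalamus genes tested 1 passed at ZT7 and 1 at ZT13 over 24 arrays, and over 20 arrays 3 were higher and 1 lower in TSR at ZT7 and 5 higher at ZT13. The mean of the 11 genes read was 6.62 to 6.72 in TSR at ZT7 against 6.35 to 6.38 in CON, and 6.95 to 7.04 in TSR at ZT13 against 6.45 to 6.54 in CON. Slc17a7, the vesicular glutamate transporter of cortex, differed by 0.12 ± 0.21 at ZT7 (adjusted p = 1) and by 1.86 ± 0.21 at ZT13 (adjusted p = 0.000307). The arcuate and ventromedial list was 6.31 to 6.34 in TSR at ZT7 against 6.32 to 6.61 in CON, with 0 of 7 passing over 24 arrays (1 at an unadjusted p under 0.05) and 2 lower over 20. Of 8 suprachiasmatic genes tested, which mark the hypothalamic clock nucleus, 1 was lower in TSR at ZT7 over 24 arrays and 8 over 20, where 0.211% and 13.8% of all genes were, with a list mean of 7.03 to 7.09 in TSR at ZT7 against 7.76 to 7.81 in CON, and of 7.02 to 7.10 in TSR at ZT13 against 7.53 to 7.62 in CON. Of 5 endothelial genes 2 were higher in TSR at ZT7 over 24 arrays and over 20. None of 7 oligodendrocyte, 6 astrocyte, 3 microglia or 2 choroid plexus genes passed at ZT7 over 24 arrays in limma, with 0 at an unadjusted p under 0.05, and over 20 arrays 2 oligodendrocyte genes were higher and 2 astrocyte genes and 1 choroid plexus gene lower.

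The mean standardized level of the 10 genes had an r of 0.41 with the cholinergic list, 0.58 with the cortex and thalamus list, 0.56 with the endothelial list, -0.36 with the arcuate and ventromedial list and -0.38 with the suprachiasmatic list over the 20 typical arrays. In deviations from the group means the 10 genes had an r of 0.77 with the striatal projection neuron list and 0.77 with the oligodendrocyte list. It was 0.76 with the astrocyte list and -0.50 with the arcuate and ventromedial list. With the MEIS, PBX and retinoid partners it was 0.63, and with protein kinase A, calcium and phosphatase signalling 0.63. With the other dopamine and opioid receptors it was -0.61. The remaining lists ran from -0.005 (endothelial) to 0.498 (choroid plexus). The part of these markers in the differences of the 10 genes was not tested.

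**Figure D4:**
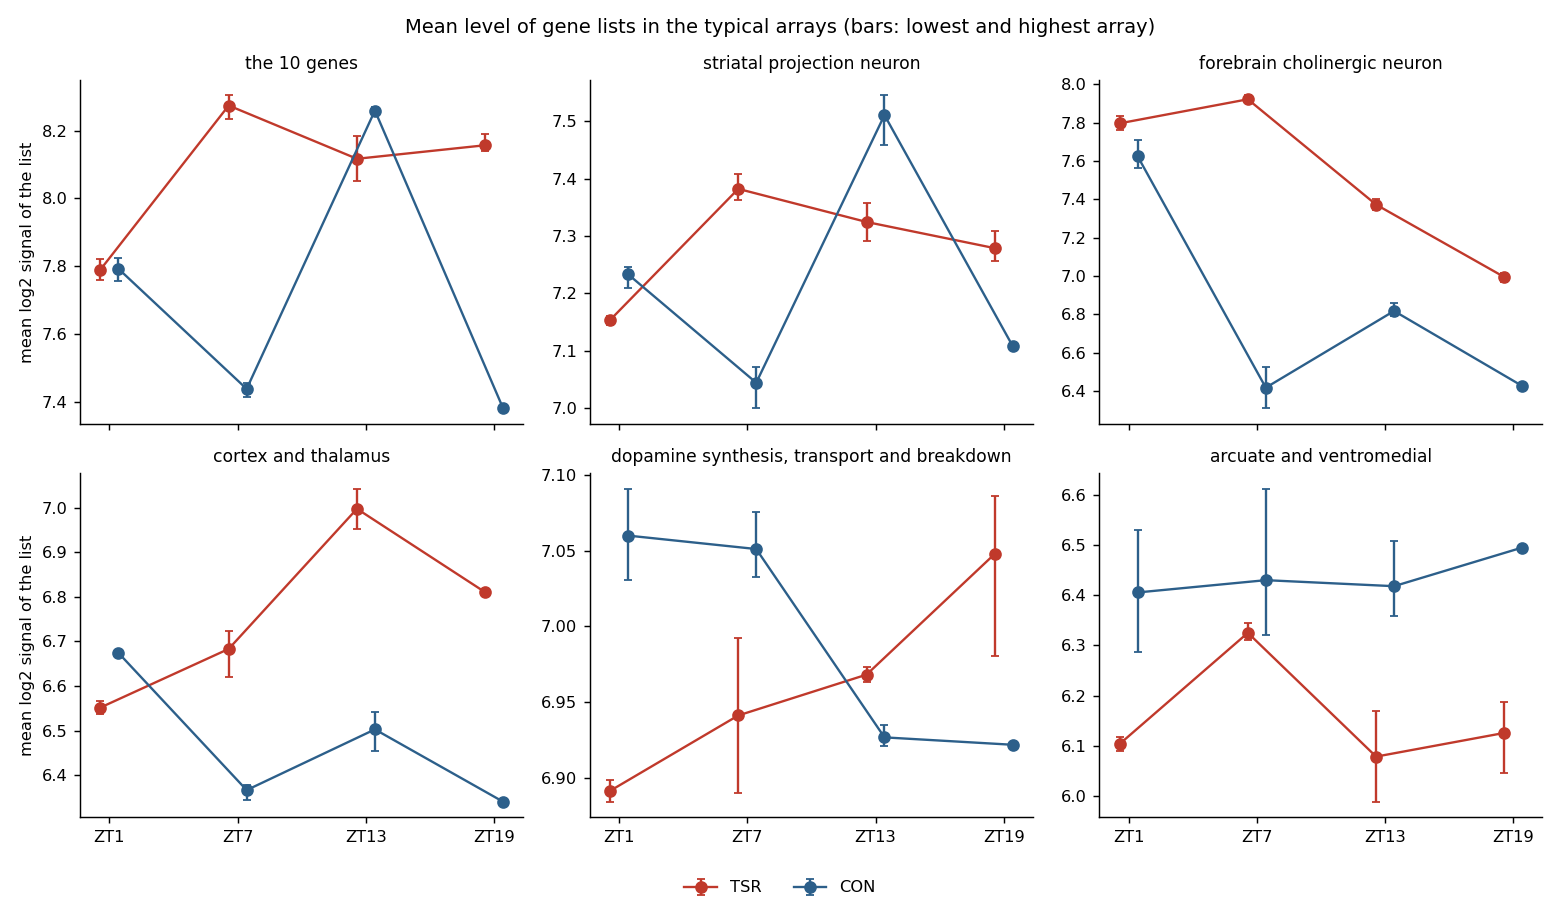
Mean log2 signal (y axis) of the 10 genes and of 5 lists of genes at ZT1, ZT7, ZT13 and ZT19 (x axis) in the typical arrays, TSR in red and CON in blue, with bars from the lowest to the highest array and 1 typical array in CON ZT19. The 10 genes and the striatal projection neuron list lie higher in TSR at ZT7 and lower at ZT13, while the mean of the cholinergic list lies higher in TSR at all 4 times.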

How the data were processed

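RNA from mediobasal hypothalamus was isolated with Trizol and biotin-labelled with an Affymetrix GeneChip kit, per the labels' protocols. The authors deposited 1 table of log2 signals for 35556 probe sets on 24 arrays, made with Affymetrix Expression Console, per the submitters' processing notes. How probes were summarised, the software version and any background step are not stated in the sources. In 2170 of 853344 cells (0.254%) the deposited log2 value had a displaced decimal point, which was put back, and 13 could not be and were set to missing. No cell of the 10 genes was among them.

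Probe sets were named through the platform's annotation table: 21789 have 1 symbol, 1621 several and 12146 none. Of the 21789, 21698 were matched by Entrez number to RefSeq genes and 0 symbols changed. The probe set with the highest mean stood for each gene. Genes whose mean was above the 40th percentile of the one-symbol probe sets (5.86 log2 units) were kept, 11871 of 19938. All 10 genes were kept by that filter. A model of 8 group means was fitted with limma 3.58.1 in R 4.3.3 (lmFit, eBayes with a trend), and p-values were adjusted by Benjamini and Hochberg's method over all genes tested, with a threshold of 0.05. The fit was tested on simulated data first. Array numbers limit the precision, as do the 4 narrow arrays, with which the median residual standard deviation was 0.36 log2 units in place of 0.11. A p-value sets differences between group means against the spread of these samples within groups, pooled over the 8 groups. Correlations are Pearson's r over the 20 typical arrays, computed with Python 3.11.15.

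The 10 genes, the other lists, the settings and the tests were chosen with earlier results of these data known. The levels of all 10 genes are given at each time. Of each other list, counts and at most the 4 genes with the smallest p in the average difference are named, with Th, Lhx8 and Slc17a7 wherever useful, and the 10 genes most correlated with the list. Zeitgeber times were read from the numbers in the sample titles. Samples with the same replicate number did not deviate together on the median. The median correlation of their deviations from group means was -0.00955 over 84 pairs, against 0.0112 over 168 pairs with other numbers. Single pairs with the same number ran from -0.843 to 0.856. In all, 9 other settings and 24 fits without 1 array were run.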

Additional observations from a re-analysis of the deposited data

Results flagged for a closer look

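In Ppp1r1b the difference between TSR and CON varied among the 4 times, by the limma test of that variation itself (adjusted p = 0.0109 over 24 arrays, 1.46e-05 over 20). The difference was -0.22 ± 0.16 log2 units at ZT1, 0.81 ± 0.16 at ZT7, -0.79 ± 0.16 at ZT13 and 0.16 ± 0.16 at ZT19. The call remained in each of the 24 fits that left out 1 array and was lost when all arrays were quantile normalized again (adjusted p = 0.112).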

How the results depend on the processing

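Over 80 single differences and tests of the 10 genes and 9 other settings, 558 of 720 values kept their direction and side of the threshold, 124 passed it newly, 17 no longer passed and 21 changed sign. Setting shifted decimals to missing changed none of them, and the mean of all probe sets 1. Both settings left the levels of the 10 genes as they were, since each gene had 1 probe set and no displaced decimal. They could act only through the other genes, and they supplied 80 and 79 of the 558 unchanged values. The number of genes called, Drd3 and Meis2 included, is given here in the order average, ZT1, ZT7, ZT13, ZT19, times in TSR, times in CON and variation of the difference. It was 2, 0, 5, 1, 8, 0, 3 and 2 over 24 arrays. It was 8, 3, 9, 5, 9, 6, 10 and 9 without the narrow arrays, 8, 5, 10, 8, 8, 9, 10 and 10 with array weights, and 8, 4, 10, 5, 8, 8, 10 and 9 when quantile normalized again without the narrow arrays, a setting chosen after seeing the data. Quantile normalization of all 24 gave 2 at ZT7 and 1 for the variation, and no filter gave 1 for the average, 2 at ZT7 and 0 at ZT13. A replicate block gave 2, 0, 4, 0, 8, 0, 3 and 2. The calls lost under the block were those of Drd1 at ZT7 and Ppp1r1b at ZT13. These were also lost in 19 and 14 of the 24 fits that left out 1 array. Why the block ended them was not tested.

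The sign turned in these values, in log2 units. Without the narrow arrays the average was 0.0348 for Ppp1r1b and 0.0337 for Pde1b, the ZT1 difference -0.0102 for Drd1, 0.0039 for Pde10a, 0.317 for Rgs9 and 0.284 for Penk, and the ZT13 difference 0.143 for Meis2. With array weights the average was 0.0209 for Ppp1r1b and 0.227 for Pde1b, the ZT1 difference 0.0171 for Pde10a, 0.327 for Rgs9, 0.283 for Penk and 0.0206 for Rarb, and the ZT13 difference 0.0155 for Meis2. Quantile normalized again without the narrow arrays, the average was 0.0074 for Ppp1r1b, the ZT1 difference -0.0597 for Drd1, 0.25 for Rgs9 and 0.204 for Penk, and the ZT13 difference 0.148 for Penk and 0.132 for Meis2. Quantile normalized with all 24, the ZT19 difference of Drd2 was -0.0604. Apart from the arrays left out, the cause was not tested.

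Leaving out 1 array at a time gave counts of 1 to 4 for the average, 0 at ZT1, 0 to 6 at ZT7, 0 to 2 at ZT13, 0 to 8 at ZT19, 0 to 1 for times in TSR, 2 to 10 for times in CON and 2 to 10 for the variation. The last 2 reached 10 without CON ZT19 replicate 1, and times in CON also without TSR ZT1 replicate 3 or TSR ZT13 replicate 2. The variation gave 4 without TSR ZT1 replicate 3 or TSR ZT13 replicate 3. The ZT13 count was 0 without any 1 of 14 arrays, which were all TSR ZT7, CON ZT1 and CON ZT13 arrays, CON ZT7 replicate 1, TSR ZT13 replicates 1 and 3 and TSR ZT19 replicates 2 and 3, and 2 without TSR ZT1 replicate 3 or CON ZT19 replicate 1. The average count was 1 without any 1 of 14 arrays, which were all TSR ZT7 and TSR ZT19 arrays, TSR ZT13 replicates 1 and 3, CON ZT1 replicates 2 and 3, CON ZT7 replicates 1 and 2 and CON ZT13 replicates 2 and 3. It was 4 without TSR ZT13 replicate 2. Of the single differences, those that turned sign when 1 array was left out ranged from -0.0421 to 0.0279 for Ppp1r1b and -0.0851 to 0.073 for Pde1b in the average, from -0.0102 to 0.299 for Drd1, -0.494 to 0.0039 for Pde10a, -0.473 to 0.317 for Rgs9 and -0.816 to 0.284 for Penk at ZT1, where the narrow TSR ZT1 replicate 3 decided the sign, and from -0.774 to 0.143 for Meis2 at ZT13, where the narrow TSR ZT13 replicate 2 did.

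The median correlation over the 36 pairs without Meis2 was 0.69 over typical arrays (all gene pairs 0.05), 0.668 to 0.721 leaving out 1, 0.512 over 24 arrays (all gene pairs 0.53) and 0.0181 for deviations from group means (all gene pairs 0.11).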
